A study of Mus musculus with 2 samples.

Results

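The cells described here are conventional CD4 T cells of the mouse spleen in which the transcription factor gene Maf was detected, 257 of 14372 kept cells. Every kept cell had at least 500 detected genes and under 10% mitochondrial transcripts. A cell was a member when it held at least 1 unique molecular identifier (UMI, 1 counted transcript) of Cd4, at least 1 of Maf and at least 1 of any of 5 companion genes, Itgb1, Tbc1d4, Tox2, Icos and Izumo1r. It also held at most 1 UMI of S100a4 and 0 UMIs of the 7 genes Cd8a, Cd8b1, Foxp3, Cd79a, Trdc, Zbtb16 and Mki67, which mark CD8 T cells, regulatory T cells, B cells, γδ T cells, NKT cells and dividing cells. The members were chosen by these expression values, so the levels of the genes of the gate are given only as a description. The working name of the population was a follicular-helper-like memory cell. Most defining follicular helper genes were detected in few members, and the cells are therefore called Maf-positive CD4 cells.

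CD3+ T cells were sorted from spleens of C57BL/6 mice and profiled in 2 droplet single-cell RNA libraries, 1 of Prmt5 conditional knockout (CKO) mice and 1 of control mice. The design text gives 3 mice per group. Cells could not be assigned to mice, so each library is 1 sample, no test between groups was possible, and an effect of genotype cannot be told apart from one of library. The CKO title names Cre and the control title names wild type, but the genotype field of both samples reads CD4-Cre+ PRMT5fl/fl, so the groups were taken from the titles. A CD4-Cre transgene deletes a floxed gene from the CD4 and CD8 double-positive thymocyte onward, hence in both CD4 and CD8 T cells. Age and sex were not given in the sources used here. Intervals are exact at the 95% level. They reflect the number of UMIs or cells counted and leave out the spread between mice.

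Maf encodes a large basic leucine zipper factor that binds DNA at Maf recognition elements. The gene lies at chr8:115682942-115707794 on the minus strand (GRCm38). In helper T cells the factor activates the cytokine genes Il4 and Il21, and it is expressed in follicular helper cells, in type 17 helper cells and in part of the regulatory and memory cells. Follicular helper cells move to B cell follicles through the chemokine receptor Cxcr5, depend on the repressor Bcl6, carry the inhibitory receptor Pdcd1 (PD-1), and help B cells through Il21, Il4, Cd40lg and the adaptor Sh2d1a (SAP). Of the companion genes, Icos is a costimulatory receptor, Izumo1r encodes folate receptor 4, Itgb1 is the integrin β1 chain, Tbc1d4 is a GTPase activator in vesicle traffic and Tox2 is an HMG-box factor. PRMT5 is the main arginine methyltransferase that forms symmetric dimethylarginine, on Sm splicing proteins and histones among others.

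The half-site of the Maf recognition element, TGCTGA or TCAGCA on the opposite strand, was looked for in the promoters of the 2 cytokine genes named above, because their transcripts are among those that would mark a follicular helper cell. The windows run from 250 bases before to 50 bases after the annotated start (RefSeq, GRCm38.p6), and the capitals mark the matches. Il4, whose window lies at chr11:53618616-53618915 on the minus strand, held 3 matches, with first bases at -234, -120 and -47 from the start, and a second annotated Il4 window held 0. Il21, at chr3:37232587-37232886 on the minus strand, held 1 match at -234. Of 6 other genes searched, Izumo1r and Cxcr3 held 1 match each, while Tbc1d4, Itgb1 and Ifng held 0. Tox2 held 1 match, the same site in 2 overlapping windows of its 5. Over all promoter windows of this length, 6401 of 32851 (19.5%) held the motif. A match describes letters and is no evidence of binding.
Il4: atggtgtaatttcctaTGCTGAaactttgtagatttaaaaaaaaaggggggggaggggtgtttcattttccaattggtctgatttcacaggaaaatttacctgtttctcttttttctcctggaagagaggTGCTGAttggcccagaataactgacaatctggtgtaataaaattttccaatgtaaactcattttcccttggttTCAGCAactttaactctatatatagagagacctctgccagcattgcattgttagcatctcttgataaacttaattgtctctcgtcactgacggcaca
Il21: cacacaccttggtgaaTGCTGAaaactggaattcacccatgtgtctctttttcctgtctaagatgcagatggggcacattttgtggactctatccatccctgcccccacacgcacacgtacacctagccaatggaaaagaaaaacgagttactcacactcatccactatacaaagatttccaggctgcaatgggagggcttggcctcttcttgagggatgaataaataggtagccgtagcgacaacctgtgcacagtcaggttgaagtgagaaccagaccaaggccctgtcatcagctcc

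Maf-positive CD4 cells made up a smaller share of the CKO library than of the control library. The CKO library held 75 among 7660 kept cells (0.979%, 0.771 to 1.23). The control library held 182 among 6712 (2.71%, 2.34 to 3.13), which gives a ratio of 0.361 (0.272 to 0.475). The ratio was 0.22 (0.117 to 0.389) among cells with Y-linked UMIs and no Xist, and 0.452 (0.303 to 0.665) among cells with Xist and no Y-linked UMIs. Among conventional CD4 cells, which are the cells with Cd4 and without the 7 other-lineage genes, they were 3.58% of 2096 against 10.8% of 1686, a ratio of 0.331 (0.25 to 0.436). Fewer cells of this kind and fewer Maf transcripts per cell cannot be told apart by a gate on UMIs.

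The steps of the gate show where the libraries parted. Cells with Cd4 numbered 3011 and 2352 in the CKO and control libraries, and 2096 and 1686 remained without genes of other lineages, so the CKO library held more cells up to that point. The Maf requirement kept 147 of these in the CKO library (7.01%, 5.96 to 8.19) and 272 in the control library (16.1%, 14.4 to 18.0). B cells, which should hold little Maf and can show the level of free RNA, held a Maf UMI in 3 of 54 CKO and 6 of 51 control cells at median depths of 4049 and 4236 UMIs. The CKO share of Maf-positive conventional CD4 cells therefore lay near that B cell share (5.56%, 1.16 to 15.4), and the control B cell share (11.8%, 4.44 to 23.9) overlaps the control CD4 share. A companion gene was found in 110 and 227 of the Maf-positive cells, and the S100a4 limit left 75 and 182. Just outside the gate were 34 CKO and 45 control cells with Maf but no companion, and 35 and 45 cells that failed on S100a4 alone. The cell filter had removed 3 CKO and 11 control barcodes that otherwise met the gate.

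A member of the CKO library met the gate more narrowly than a control member. Exactly 1 Maf UMI was found in 41 of 75 CKO members and 72 of 182 control members, and exactly 1 companion gene in 50 (66.7%, 54.8 to 77.1) and 63 (34.6%, 27.7 to 42.0). Cells with 4 or 5 companions numbered 0 in the CKO library, which allows a share of up to 4% of its members for each number, and 27 in the control library, 25 with 4 and 2 with 5. Requiring 2 or more companions left 25 and 119 cells, a ratio of shares of kept cells of 0.184 (0.115 to 0.285). Requiring 2 or more Maf UMIs left 34 and 110, a ratio of 0.271 (0.179 to 0.401). CKO members had a median of 6669 UMIs and control members 6157, with mitochondrial medians of 4.23% and 5.23%. With cells thinned to 2000 UMIs before the gate, 11 CKO and 60 control members were left, a ratio of 0.161 (0.0763 to 0.309).

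The ratio between the libraries varied with the companion found beside Maf. Maf with Izumo1r was found in 45 and 122 cells, a ratio of shares of 0.323 (0.224 to 0.458). Maf with Tbc1d4 was found in 20 and 70 cells (0.25, 0.144 to 0.416), with Icos in 28 and 109 (0.225, 0.143 to 0.344), with Itgb1 in 12 and 76 (0.138, 0.0685 to 0.256) and with Tox2 in 1 and 26 (0.0337, 0.000822 to 0.205). The intervals of Izumo1r and Itgb1 overlap, and no difference between companions was tested. A single companion UMI separated cells poorly. Among conventional cells with at most 1 S100a4 UMI and no Maf UMI, called Maf-negative cells below, 52.8% of 1932 CKO and 59.1% of 1393 control cells carried one, against 68.8% of 109 and 80.2% of 227 cells with Maf. Izumo1r was the least distinctive in the CKO library, with 41.3% of Maf-positive and 38.0% of Maf-negative cells, against 53.7% and 37.0% in the control library.

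**Figure D1:**
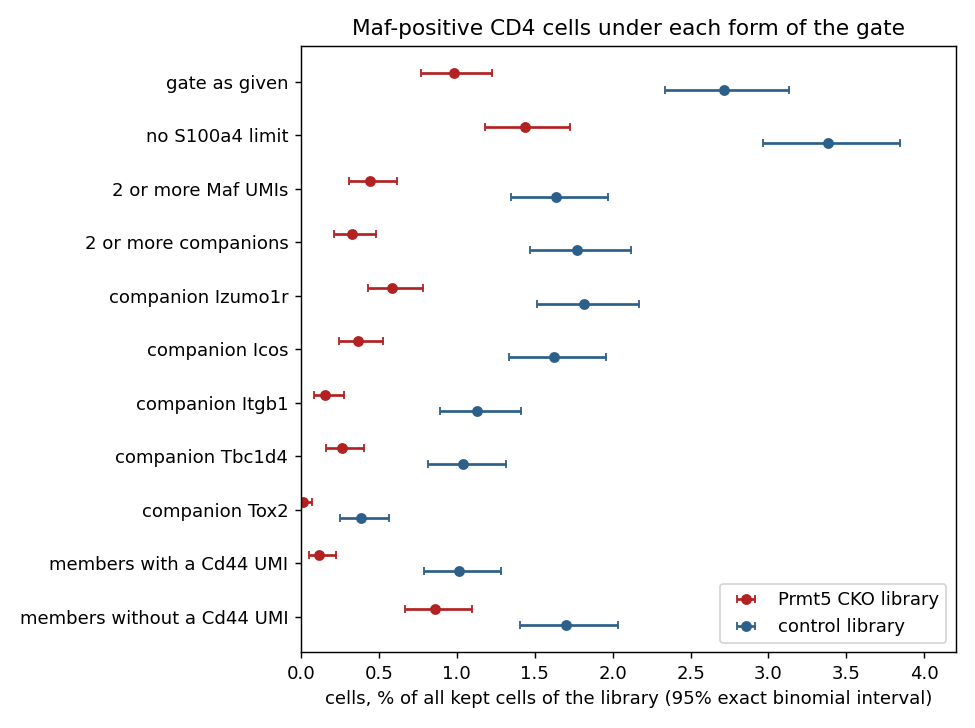
Share of all kept cells of each library (x axis, %) that met each form of the gate, with the libraries in red (Prmt5 CKO) and blue (control); points are shares, and bars are 95% exact binomial intervals. The CKO share lay below the control share under each form, 0.979% against 2.71% for the gate as given, and the intervals of the libraries did not meet under any of the forms drawn.

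Maf was also detected in a smaller share of regulatory T cells of the CKO library. Among CD4 cells with a Foxp3 UMI, 37 of 117 held Maf in the CKO library (31.6%, 23.3 to 40.9) and 76 of 151 in the control library (50.3%, 42.1 to 58.6). Icos was detected in 35.9% and 49.7% of the same cells and Itgb1 in 23.1% and 40.4%. Whether the ratio differed between Foxp3-positive and conventional cells was not tested.

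The gene Prmt5, at chr14:54507187-54517525 on the minus strand (GRCm38), could not be used to check the genotype within these cells. It gave 4 UMIs in 3 CKO members (7.24 CPM, the gene's UMIs over all UMIs of the summed cells, scaled to 1000000) and 8 UMIs in 8 control members (6.54 CPM), a log2 ratio of 0.15 (-2.03 to 2.05), so a difference was not detectable at this depth. In Maf-negative cells the level was 3.58 and 11.5 CPM, a log2 ratio of -1.69. The 3 CKO members with Prmt5 were all among the 25 with 2 or more companions. Of the 8 control members with Prmt5, 7 were among the 119 with 2 or more companions.

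The follicular helper label was checked against its defining genes. Cxcr5 was detected in 6 of 75 CKO members (8%, 2.99 to 16.6) and 9 of 182 control members (4.95%, 2.29 to 9.18), above the 0.621% and 0.718% of Maf-negative cells. After thinning to 2000 UMIs per cell the expected shares were 2.95% and 1.77%, against 0.159% and 0.178%. B cells express Cxcr5 (11.1% and 15.7%) and so give no background for it. Pdcd1 was detected in 4 (5.33%) and 14 (7.69%) members and in 1.09% and 1.22% of Maf-negative cells, with 0 of 54 and 0 of 51 B cells. Bcl6 was detected in 1 and 6 members, a share (1.33% and 3.3%) no higher than in Maf-negative cells (3.62% and 3.37%). Il21 was detected in 1 and 3 members and in 0 Maf-negative cells of either library. Il4 gave 0 UMIs in the CKO members and 18 UMIs in 7 control members, 9 of them from 1 cell. With the CKO count set to a floor of 3 UMIs, the Il4 level was 2.71-fold lower there. That is a point value that leaves out the counting error of the control UMIs. Cxcr5, Pdcd1, Il21 and, in the control library, Il4 were thus detected in a larger share of members than of Maf-negative cells, while most members held none of them. Pdcd1 was more frequent in other CD4 cells. It was detected in 10.9% (CKO) and 15.2% (control) of conventional CD4 cells with 2 or more S100a4 UMIs. In Foxp3-positive CD4 cells its shares were 8.55% and 15.9%. Cxcr5 was detected in 7.58% and 7.95% of these 2 kinds of cells in the control library, but in 1.82% and 4.27% in the CKO library. Il21 was not detected in them, and Il4 only in 1 Foxp3-positive control cell.

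Genes that led the members over Maf-negative cells in both libraries included genes of activated, type 1 and memory cells. Because the rule chose the cells, these ratios are a description. The share of all 4717 measured genes (at least 40 UMIs over the members of both libraries) that were at least 2-fold higher was 1.17% in the CKO library, with 0.445% at least 2-fold lower and 1.61% in either direction. In the control library these shares were 3.1%, 0.297% and 3.39%. Cxcr3, a chemokine receptor of type 1 effector and memory cells, had the highest value of the smaller of the 2 libraries' log2 ratios, at 4.07 (CKO) and 3.85 (control). It was detected in 6 CKO members (8%) and 59 control members (32.4%), in 0.518% and 2.80% of Maf-negative cells, and in 0 of 54 and 0 of 51 B cells. After thinning the expected shares of members were 4.75% and 16.9%. Other leading genes were Cxcr6, a second receptor of this kind (3.18 and 4.10), the survival gene Bcl2a1d (2.91 and 2.86), the calcium-binding S100a6 (2.60 and 3.62), the cytotoxic granule gene Nkg7 (2.03 and 3.24), the adhesion receptor Cd44 (1.62 and 2.66) and the nuclear receptor Rora (1.48 and 2.84). In the CKO library several of these came from few cells: 19 of 25 Bcl2a1d UMIs, 17 of 26 of Nkg7, 36 of 60 of the costimulatory receptor Tnfrsf4 and all 10 of Cd160 came from 1 cell each. Cxcr6 was detected in 2 of 75 CKO members (2.67%, 0.325 to 9.30) and in 9.34% of control members. The leading genes did not set members apart from all other CD4 cells. Conventional CD4 cells with 2 or more S100a4 UMIs, left out by the gate, held Cxcr3 in 49.1% (CKO) and 54.5% (control) of cells. Their shares for Cxcr6 were 60% and 18.2%. Nkg7, Bcl2a1d, S100a6 and Rora were also detected in larger shares of them than of members in both libraries. For Cd44 this held only in the CKO library. Lower in members than in Maf-negative cells were Itm2a (-0.90 and -0.87), Stmn1 (-0.68 and -1.09), Atp1b1 (-0.65 and -0.94) and Ttyh3 (-0.62 and -1.20).

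For the naive, activation, type 1 and follicular helper lists, the median of control members lay further from Maf-negative cells than that of CKO members. Of all measured genes, 75.1% were higher in control members and 57.6% in CKO members, so the baselines of these counts differ. Of 19 measured naive and homing genes, 17 were lower in control members (median log2 ratio -0.45) and 14 in CKO members (-0.07). Of 20 measured activation and memory genes, 20 were higher in control members (median 1.68, 14 of them at least 2-fold) and 17 in CKO members (0.74, 8 at least 2-fold). Of 9 type 1 genes, 9 were higher in either library, with medians of 2.73 in control and 1.31 in CKO members. The 14 measured follicular helper genes had medians of 0.52 in control and 0.16 in CKO members, with 4 and 0 of them at least 2-fold higher. The medians over all measured genes were 0.19 and 0.05 in the same order. The activation and type 1 lists share genes, among them Cxcr3 and Cxcr6. Not every other list had this order. T cell receptor signalling genes did, with medians of 0.10 in CKO and 0.34 in control members. Regulatory genes had medians of 1.32 and 1.35, chemokine receptors 0.12 and 0.13, and common γ chain receptor genes 0.13 and 0.02. None of these differences between the libraries was tested.

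Naive-type transcripts marked most CKO members. Lef1 (chr3:131110471-131224356, plus strand, GRCm38), which encodes a factor of naive T cells, had 347 UMIs in 68 of 75 CKO members (628 CPM, 564 to 698) and 437 UMIs in 124 of 182 control members (357 CPM, 324 to 392). As a share of cells this is 90.7% (81.7 to 96.2) against 68.1% (60.8 to 74.8). The CKO interval included the share of CKO Maf-negative cells (93.1%), while the control share lay below that of its own Maf-negative cells (92.5%). With each cell thinned to 2000 UMIs, the expected shares were 66.2% and 41.7% in members, 68.8% and 68.0% in Maf-negative cells. B cells, as a measure of background, held a Lef1 UMI in 14.8% and 21.6% of cells.

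Cd44 (chr2:102811141-102901665, minus strand, GRCm38), the adhesion receptor of activated and memory cells, went the opposite way. It gave 14 UMIs in 9 CKO members (25.3 CPM, 13.9 to 42.5) and 107 UMIs in 68 control members (87.4 CPM, 71.7 to 106), a log2 ratio of -1.79 (-2.71 to -0.98). The shares of cells were 12% (5.64 to 21.6) and 37.4%, or 4.36% and 15.9% in expectation after thinning, against 4.35% and 7.47% of Maf-negative cells before thinning and 1.49% and 2.65% after it. In B cells, Cd44 was detected in 5.56% and 11.8%. A missing Cd44 UMI does not mark a naive cell, since Cd44 was found in 33.3% of conventional control cells with 2 or more UMIs of S100a4, itself a gene of memory cells.

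**Figure D2:**
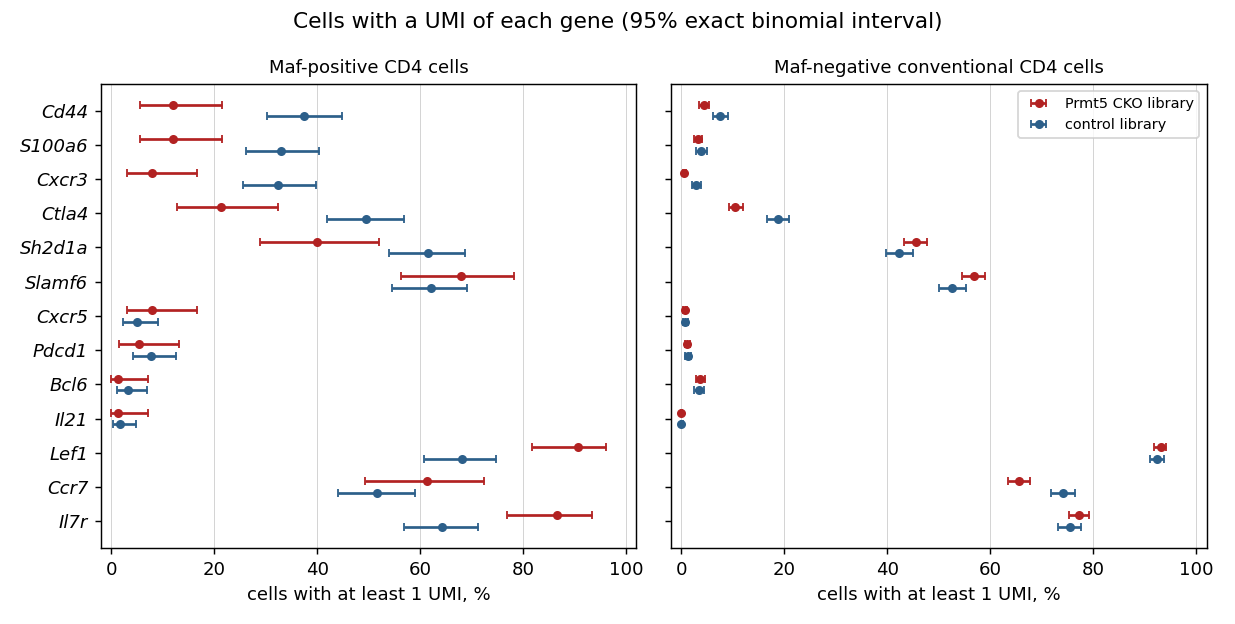
Share of cells with at least 1 UMI (x axis, %) for 13 genes (y axis) in Maf-positive CD4 cells (left) and Maf-negative conventional CD4 cells (right), with the CKO library in red, the control library in blue and 95% exact binomial intervals. Lef1 was detected in more CKO than control members (90.7% against 68.1%) while Cd44, S100a6, Cxcr3, Ctla4 and Sh2d1a were detected in fewer, and Cxcr5, Pdcd1, Bcl6 and Il21 were rare in either library.

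The share of kept cells can be given for the members with and without Cd44, a split chosen after its values were seen. Members with a Cd44 UMI numbered 9 in the CKO library (0.117%, 0.0537 to 0.223) against 68 in the control library (1.01%, 0.788 to 1.28), a ratio of 0.116 (0.0509 to 0.233). Members without one were 66 (0.862%, 0.667 to 1.09) and 114 (1.70%, 1.40 to 2.04), a ratio of 0.507 (0.369 to 0.693). These ratios restate the shares of members with Cd44 above and are no separate observation.

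The number of companions, a split made after the data were seen, gave the same order for Lef1 and Cd44 in both libraries. In control members Lef1 was detected in 77.8% of cells with 1 companion and 63.0% of those with 2 or more, and Cd44 in 20.6% and 46.2%. In CKO members the shares were 96% and 80% for Lef1 and 8% and 20% for Cd44, the latter from 4 and 5 cells. Not every gene rose or fell alike. Ctla4 was detected in 28.6% and 60.5% of control members but in 24% and 16% of CKO members. Cxcr3 was detected in 17.5% and 40.3% of control members but in 8% and 8% of CKO members. Within either class the CKO members held Lef1 more often and Cd44 less often than the control members, but the intervals of the libraries overlapped, as in the upper class of 25 CKO cells for Cd44 (6.83 to 40.7 against 37.0 to 55.6) and Lef1 (59.3 to 93.2 against 53.7 to 71.7). For Igfbp4, a gene of naive CD4 cells, they did not, with 74% of CKO and 41.3% of control cells with 1 companion, and 44% (24.4 to 65.1) and 16.0% (9.90 to 23.8) with 2 or more. Of the cells just outside the gate for want of a companion, 97.1% of 34 CKO and 82.2% of 45 control cells held Lef1, and 5.88% and 8.89% held Cd44.

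Cells that failed on S100a4 alone were the exception to the order of the libraries for Lef1 and Cd44. Cd44 was detected in 20 of 35 such CKO cells (57.1%) and 12 of 45 such control cells (26.7%), and Lef1 in 48.6% and 68.9%. Over all conventional CD4 cells with 2 or more S100a4 UMIs, with or without Maf, Cd44 was detected in 50.9% of 55 CKO and 33.3% of 66 control cells. Members held Cd44 in 12% and 37.4% and Lef1 in 90.7% and 68.1%, so the cells removed by the limit held Cd44 more often than members in the CKO library but not in the control library. The limit removed a larger proportion of the CKO cells, 35 of 110 against 45 of 227.

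**Figure D3:**
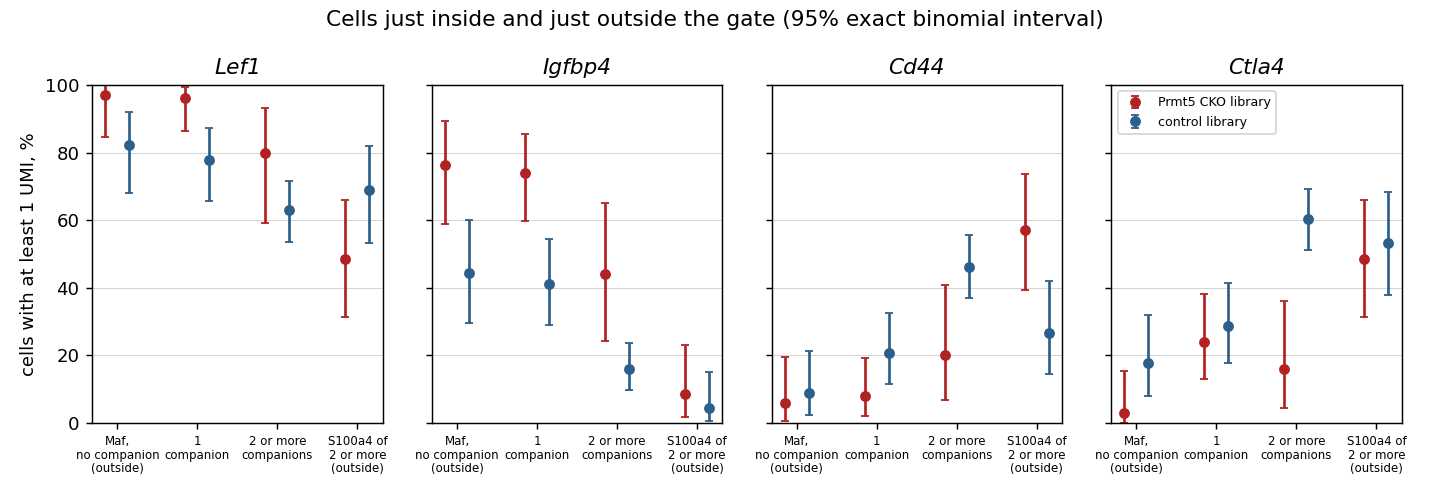
Share of cells with at least 1 UMI (y axis, %) of Lef1, Igfbp4, Cd44 and Ctla4 in cells with Maf but no companion, in members with 1 and with 2 or more companions, and in Maf-positive cells left out for 2 or more S100a4 UMIs, with the CKO library in red, the control library in blue and 95% exact binomial intervals. Control members with 2 or more companions held Lef1 less often than those with 1 (63.0% and 77.8%) and Cd44 more often (46.2% and 20.6%), and in the cells left out for S100a4 the order of the libraries for Cd44 was the reverse, 57.1% in CKO and 26.7% in control. Ctla4 was more frequent with 2 or more companions than with 1 in control members (60.5% and 28.6%) but not in CKO members (16% and 24%).

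Maf-positive cells of the libraries were then compared gene by gene, CKO over control. Of the 4717 measured genes, 58 were at least 2-fold higher (1.23%) and 180 at least 2-fold lower (3.82%), 5.05% in all, with a median log2 ratio of -0.09. Centred on that median, 75 were at least 2-fold higher and 134 lower. The minimum of 40 UMIs over both libraries favours lower genes, because the control members carry more UMIs: a gene found in 1 library alone passes from 32.7 CPM in the control library but from 72.4 CPM in the CKO library. With a minimum of 22.5 on the mean CPM of the libraries instead, a filter added after the data were seen, 69 of 4624 genes were at least 2-fold higher and 140 lower. Genes such as Ifng, Eea1 and Ly6c2 passed only through the library where they were high, so the excess of lower genes is given as a description. In Maf-negative cells, for which far more UMIs were counted, 7 of the same genes were higher (0.148%) and 8 lower (0.17%), 0.318% in all. The members' sums were 552360 and 1223809 UMIs, so single genes carry wide counting intervals, and these counts of genes are no counts of changed genes.

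Of the 12 highest genes, 4 are on the list of naive and homing genes, Igfbp4, Ly6c1, Treml2 and Dapl1. Pdlim4, a PDZ and LIM domain protein, had 49 UMIs in 27 CKO members (88.7 CPM) and 16 UMIs in 13 control members (13.1 CPM), a log2 ratio of 2.76 (1.92 to 3.68). Igfbp4, an insulin-like growth factor binding protein of naive CD4 cells, was at 594 and 150 CPM (1.98, 1.72 to 2.25), and was detected in 64.0% and 24.7% of members. Sox4, a factor of thymocytes and recent emigrants, was at 65.2 and 17.2 CPM (1.93, 1.11 to 2.78). Ly6c1 (1.50), Treml2 (1.50) and Dapl1 (482 and 179 CPM, 1.43) were higher too, and Bach2, a repressor that holds T cells in a resting state, was at 83.3 and 40 CPM (1.06, 0.44 to 1.67). The CKO members' levels of these genes lay close to those of CKO Maf-negative cells, which had 96.1 CPM of Pdlim4, 722 of Igfbp4, 89.4 of Sox4 and 526 of Dapl1. Usp18, a protease induced by interferon, was 1.60 higher on the log2 scale in members and 1.46 higher in Maf-negative cells. Acss2, Itgb3, Klhdc2, Ethe1 and Dirc2 completed the 12 highest, with log2 ratios of 1.38 to 1.88.

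The lowest genes included effector and memory genes. Ahnak, a large scaffold protein raised in memory cells, had 12 UMIs in 8 CKO members (21.7 CPM, 11.2 to 37.9) and 195 UMIs in 77 control members (159 CPM, 138 to 183), a log2 ratio of -2.87 (-3.85 to -2.04). Ifng, the type 1 cytokine, had 1 UMI in the CKO members and 49 UMIs in 23 control members, a log2 ratio of -4.47 (-9.80 to -1.92), and its ratio in Maf-negative cells was -3.96. Ly6c2 had 2 and 73 UMIs (interval -7.11 to -2.14), with 21 of the 73 from 1 cell, and the endosomal tether Eea1 had 2 and 40 (interval -6.27 to -1.23). The membrane binder Anxa2 (-2.83), the growth factor receptor Igf1r (-2.48), the factor Nfatc2 (-2.34), the ligand Cd274 (PD-L1, -2.28), the lamin Lmnb1 (-2.23), the ectonucleotidase Nt5e (CD73, -2.17) and the repressor Bhlhe40 (-2.12) were lower, as was Spry1, with 3 and 38 UMIs. In Maf-negative cells the ratios of those 8 genes lay between -0.55 and -0.03.

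The S100a4 limit decided the direction of some of these ratios. Without it, with 110 CKO and 227 control cells, Bhlhe40 (0.57), Cxcr6 (1.13), S100a6 (0.45) and Ccl5 (0.24) were higher in the CKO library. The ratios of Ifng (0.044, -0.55 to 0.62), Anxa2 (0.26), Rora (0.39), Nkg7 (0.24) and Podnl1 (0.18) were above 0 and that of Ahnak was -0.13, each with an interval that included 0. Cd44 (-0.61), Cxcr3 (-0.78), Ctla4 (-1.26), Nt5e (-2.42) and Igf1r (-2.76) stayed lower, and Igfbp4 (1.81) and Pdlim4 (2.3) stayed higher.

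**Figure D4:**
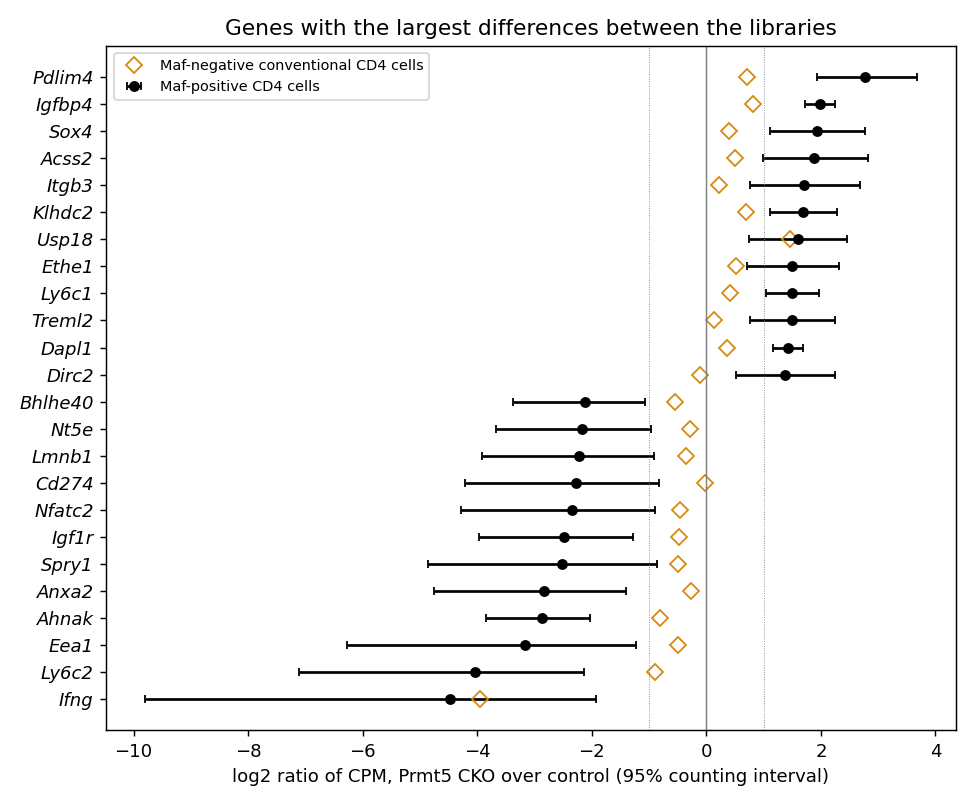
Log2 ratio of CPM in the Prmt5 CKO over the control library (x axis) for 24 genes, the 12 highest and the 12 lowest by this ratio in Maf-positive CD4 cells (black points, 95% counting intervals) and the ratio of the same genes in Maf-negative conventional CD4 cells (open diamonds). Members ran from 2.76 for Pdlim4 to -4.47 for Ifng, and the diamonds lay nearer 0, least so for Usp18 and Ifng; without the S100a4 limit Ifng, Anxa2 and Bhlhe40 were above 0, Ifng and Anxa2 with intervals that included 0.

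By list, activation and memory genes were lower in the CKO members and naive genes higher. Of 20 measured activation and memory genes, 19 were lower and 9 of them at least 2-fold (background 3.82% of measured genes), with a median of -0.78. They included the inhibitory receptor Ctla4 (59.7 and 235 CPM, -1.97, -2.54 to -1.45), the interleukin-2 receptor chain Il2rb (-1.86) and S100a6 (-1.85). The exception, Tnfrsf4 (0.99), drew 36 of its 60 CKO UMIs from 1 cell. Of 9 type 1 genes, 8 were lower, 7 at least 2-fold, with a median of -1.68. Of the NK and innate genes 2 were measured, Cd160 with 10 and 79 UMIs (-1.83) and Klrd1 with 21 and 44 (0.08), and their part in the type 1 result was not tested. In the CKO library 60 of 79 UMIs of the chemokine gene Ccl5 came from 1 cell, as did 62 of 186 Nkg7 UMIs in the control library. Both medians rested on the S100a4 limit and were 0.10 and 0.14 without it. In Maf-negative cells 12 of the 20 activation genes and 6 of the 9 type 1 genes were lower, with medians of -0.12 and -0.47. Of those type 1 genes, 3 were at least 2-fold lower (background 0.17%). The 2 lists share genes, among them Cxcr3 and Cxcr6, so the medians are not separate observations. Of 19 naive and homing genes, 14 were higher and 6 at least 2-fold (background 1.23%), with a median of 0.38, against 0.34 without the limit and 0.02 in Maf-negative cells. Lef1 had a log2 ratio of 0.815 (0.61 to 1.02), and Il7r, the interleukin-7 receptor, was at 726 and 397 CPM (0.87, 0.68 to 1.06), whereas the homing receptor Ccr7 (-0.08) did not differ beyond counting error.

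Follicular helper genes were mixed. Of 24 genes in the files, 14 were measured, and 11 of these were lower and 3 higher in the CKO members, with a median of -0.25, where 2805 of all 4717 genes were lower. Sh2d1a had 58 UMIs in 30 CKO members (105 CPM) and 273 UMIs in 112 control members (223 CPM), a log2 ratio of -1.09 (-1.52 to -0.67). As a share of cells this was 40% and 61.5%, or 17.7% and 32.2% in expectation after thinning, with 45.5% and 42.3% in Maf-negative cells and 0 of 54 and 0 of 51 in B cells. The surface ligand Cd200 (19.9 and 45.8 CPM, -1.20, -2.28 to -0.25), the ATP receptor P2rx7 (-1.85, -3.23 to -0.72), the SLAM receptors Cd84 (-0.79, -1.32 to -0.29) and Slamf6 (-0.38, -0.69 to -0.09) were lower. Tcf7, a factor needed for naive and follicular cells (0.12), Cd40lg (-0.14), Tox (-0.15), Batf (-0.31), Btla (-0.44), Il6ra (0.31) and Il6st (0.58) had intervals that included 0. Among genes too low to be measured, Gpm6b gave 0 UMIs in the CKO members and 34 UMIs in 20 control members. With the CKO count set to the floor of 3 UMIs it was 5.12-fold lower, a point value without the counting error of the control UMIs. Pou2af1, a coactivator, gave 1 and 20 UMIs (interval -8.55 to -0.53).

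Maf itself, as fixed at 1 UMI or more by the gate, was at 301 and 429 CPM in members. Its partner Mafk, a small Maf protein, was lower (19.9 and 45.8 CPM, -1.20, -2.28 to -0.25), and the small Maf proteins Maff (-0.31) and Mafg (-0.07) had intervals that included 0. The list that holds these partners together with Bach2 and with genes of interleukin-6 type receptors and their signalling had 17 measured genes, 7 higher and 10 lower (median -0.27). After centring on the median of all genes 8 were higher and 9 lower. The list was thus near the background, where 40.5% of all measured genes were higher. Of 11 genes of the common γ chain receptors and their pathway, 8 were higher (median 0.21), also after centring. Bcl2, a survival protein under interleukin-7, was at 339 and 150 CPM (1.17, 0.87 to 1.47) in members and 0.76 higher in Maf-negative cells, and Il4ra was higher in members (1.01, 0.25 to 1.77). Bbc3, a p53 target that encodes the death protein PUMA, was also higher (77.8 and 37.6 CPM, 1.05, 0.42 to 1.68), but the 11 measured p53 targets were split, 5 higher and 6 lower (7 and 4 after centring).

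Most measured T cell receptor signalling genes were lower, and Lck was among the 4 that were higher. Lck, the proximal kinase, was at 1356 and 558 CPM (1.28, 1.13 to 1.43) in members and 1.34 higher in Maf-negative cells. Of 23 measured genes of the pathway, 19 were lower, with a median of -0.21. The medians of their lower and upper bounds were -0.51 and 0.13. With ratios centred on the median of all genes, 15 were lower and 8 higher. Among the lower ones were the kinase Zap70 (74.2 and 151 CPM, -1.03, -1.55 to -0.53), the protease Malt1 (-1.34, -1.89 to -0.83) and the adaptor Sla (-0.91, -1.47 to -0.38). The costimulatory receptor Cd28 was at 322 and 547 CPM (-0.76, -1.01 to -0.52) in members, and its log2 ratio in Maf-negative cells was -0.48. Of 18 immediate early genes, 14 were lower (median -0.34), or 13 after centring. Among them were the phosphatases Dusp6 (-1.75, -3.13 to -0.60) and Dusp5 (-0.81, -1.31 to -0.34) and the nuclear receptor Nr4a2 (-1.72, -3.10 to -0.57). Each of 8 measured genes of chemokine and lipid chemoattractant receptors was lower (7 of 8 after centring, where Ccr7 was at 0.011), but the median of -0.43 was no further from 0 than that of Maf-negative cells (-0.52).

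Genes of the Sm and SMN proteins, substrates and partners of PRMT5, were split in members. Of 12 measured Sm and SMN genes, 6 were higher and 6 lower (median 0.03), where 11 of 12 were higher in Maf-negative cells (median 0.16). Of all measured genes 40.5% were higher in members and 58.5% in Maf-negative cells. Of 36 respiratory chain genes, 19 were higher and 17 lower (median 0.01, 27 and 9 after centring), where 35 were higher in Maf-negative cells (median 0.19). Of 20 interferon-induced genes, 10 were higher and 10 lower, with Irf7 (1.06), Gbp4 (1.06) and Ifit1 (0.86) among the higher ones. The difference between members and Maf-negative cells was not tested for any list.

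**Figure D5:**
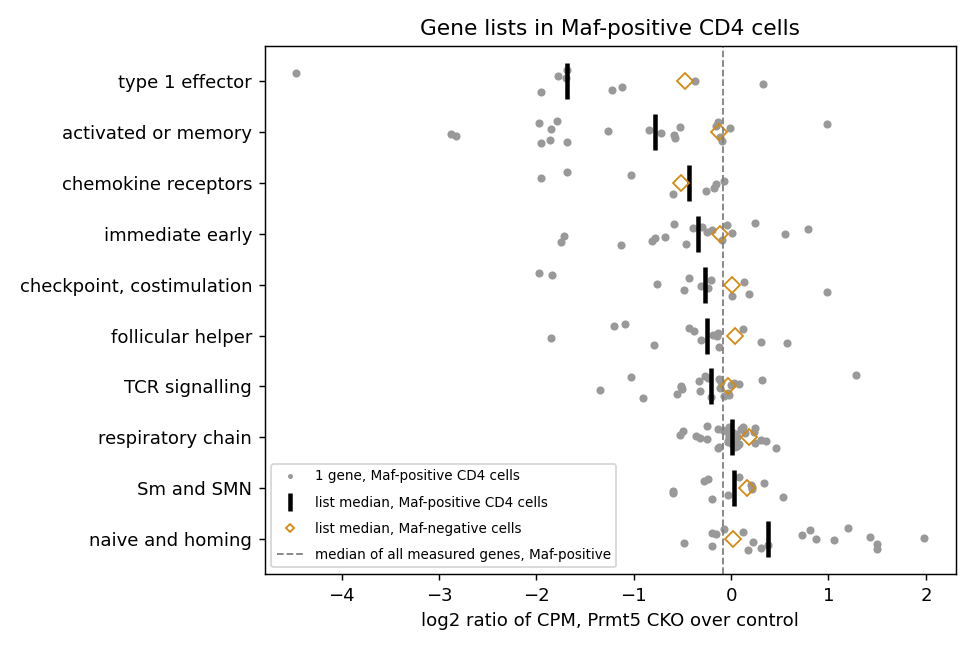
Log2 ratio of CPM in the Prmt5 CKO over the control library (x axis) for each measured gene of 10 lists in Maf-positive CD4 cells (grey points), with the list median in these cells (black bars) and in Maf-negative cells (open diamonds); the dashed line is the median of all measured genes in Maf-positive cells, -0.09. Medians ran from -1.68 for type 1 genes to 0.38 for naive and homing genes, and without the S100a4 limit the type 1 and activation medians were 0.14 and 0.10.

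Markers of other cell types were checked in members. Ms4a1, Lyz2 and Ncr1, which define B cells, macrophages and NK cells, were at 0 in the members of either library, while Cd8a and Cd8b1 were at 0 by the gate. Other genes of these cell types were not. Pax5, Tyrobp and Klrb1c were detected in control members only, and Ighd and H2-Aa in CKO members only. The 14 B cell genes summed to 277 CPM in CKO and 252 CPM in control members, mostly Ighm, with 7 and 6 genes at 0, against 248 and 230 CPM in Maf-negative cells. The 14 myeloid genes, mostly Ctss and Cst3, summed to 261 and 226 CPM, with 11 and 7 at 0, against 272 and 213 CPM in Maf-negative cells. Igkc gave 15 UMIs in the CKO members, 12 from 1 cell, and 3 in the control members. The 9 CD8-type genes, which include Ccl5 and Nkg7, summed to 201 and 718 CPM in members, above the 106 and 110 CPM of Maf-negative cells. The 18 NK and innate genes summed to 97.8 and 210 CPM, with 9 and 6 at 0, against 68.4 and 49.5 CPM in Maf-negative cells. The share of members with a UMI of the NK and innate list had the opposite order, 34.7% in CKO and 22.0% in control, and 1 control cell held 46 of the 257 UMIs. Without cells holding RNA of B, myeloid or NK cells, 73 of 75 CKO and 166 of 182 control members remained. The ratio of shares of kept cells was then 0.388 (0.291 to 0.514), and the log2 ratio of Cd160 was 0.35 (-0.95 to 1.58). Beyond that setting, the part of such cells in the results above was not tested. The gate kept out regulatory T cells by Foxp3 alone. Of 5 measured regulatory genes, 5 were higher in members than in Maf-negative cells in either library, with medians of 1.32 (CKO) and 1.35 (control). Ikzf2, 1 of them, was detected in 24% and 26.4% of members. Its shares were 6.78% and 6.60% of Maf-negative and 71.8% and 77.5% of Foxp3-positive cells. The list shares genes with the activation list. The part of regulatory cells among members was not tested. The T cell genes Cd3e and Cd3d were detected in 75 and 75 of 75 CKO and in 177 and 178 of 182 control members. Of 11 barcodes found in both libraries, 0 belonged to CKO members and 2 to control members.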

How the data were processed

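The submitters' processing notes name CASAVA 1.8, Cell Ranger 3.1.0, Seurat 2.3.4 and the build mm10, without the role of each. The deposited matrices hold counts, whole numbers of UMIs per gene and barcode, with no normalization. Droplet libraries were made with the 10x Genomics 3′ chemistry V3.1, per the labels' protocols. Barcodes were kept here from 500 detected genes upward when mitochondrial UMIs stayed below 10%, and members were gated on raw UMIs. No doublet caller was run, and a setting without the cells of highest UMI number stands in for it. Member UMIs were summed per library and given as CPM with exact Poisson intervals, ratios with conditional binomial intervals and shares with Clopper-Pearson intervals, all at 95%. A count of 0 was given a floor of 3 UMIs over the group. With 1 library per group there is no test and no p-value. Genes counted as measured from 40 UMIs over the members of both libraries, and a difference of 2-fold or more was counted. Shares after thinning are the exact mean over all draws of 2000 UMIs per cell, without shallower cells (0 CKO and 1 control member). The text names the 12 highest and 12 lowest ratios whose interval excludes 0, the 15 highest and 8 lowest genes over Maf-negative cells, measured helper genes and up to 4 genes per list of 27 lists, without receptor, mitochondrial, ribosomal, sex-linked and predicted genes, plus genes of the gate and of cell type checks. Some of these are given only as ranges or counts, and the values of some genes are not reported here. Members and lists were chosen with earlier results of these data known. The code was tested on simulated data. Computation used Python 3.11.15, numpy 2.4.6, scipy 1.17.1, pandas 2.3.3 and matplotlib 3.10.9.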

Additional observations from a re-analysis of the deposited data

Results flagged for a closer look

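Among measured genes of the lists and the named genes, 12 had ratios of CKO over control in opposite directions in Maf-positive and Maf-negative CD4 cells, each with an interval off 0. The difference itself was not tested, and both ratios come from the same 2 libraries. Of all 4717 measured genes, 40.5% were higher in members and 58.5% in Maf-negative cells, so the baselines differ. The share of all measured genes with such opposite ratios is not given, so the count of 12 is a description. Lower in Maf-positive and higher in Maf-negative cells were Sh2d1a (-1.09 against 0.19), Cd200 (-1.20 against 0.38), Lgals1 (-0.72 against 0.50), Cd82 (-0.52 against 0.18), Cd27 (-0.48 against 0.10), Lat (-0.23 against 0.09) and the respiratory chain genes Ndufb9 (-0.50 against 0.22), Uqcrb (-0.37 against 0.21) and Uqcrq (-0.32 against 0.08). Higher in Maf-positive and lower in Maf-negative cells were the chromatin organiser Satb1 (0.73 against -0.11), Actn1 (0.38 against -0.20) and the immediate early factor Egr1 (0.79 against -0.22). Without the S100a4 limit, Sh2d1a (-0.94) and Cd200 (-1.21) stayed lower in Maf-positive cells. The intervals of Ndufb9 (-0.44 to 0.13) and Uqcrb (-0.39 to 0.12) then included 0.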

How the results depend on the processing

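Of 1746 values under 15 settings, 1526 lay within the interval of the reported value (for a list median, the medians of its genes' bounds) and 191 outside it. The other 29 had the opposite sign to a reported value whose interval excludes 0. The member share of kept cells had a log2 ratio of -1.47 as reported. It was -1.88 with at least 2 Maf UMIs, -2.44 with at least 2 companions, -2.64 when cells were thinned to 2000 UMIs before the gate and -2.19 among cells with Y-linked UMIs and no Xist. It was -3.11 for members with and -0.98 for members without a Cd44 UMI, a split added after the data were seen. Over conventional CD4 cells the first 4 of these were -2.01, -2.565, -2.81 and -2.42, against -1.59 as reported. Without the S100a4 limit the sign turned for Ifng (0.044), Anxa2 (0.26), Bhlhe40 (0.57), Cxcr6 (1.13), S100a6 (0.45), Podnl1 (0.18), Nkg7 (0.24), Rora (0.39), Ccl5 (0.24) and the activation (0.10) and type 1 (0.14) medians. Thinning before the gate left 11 CKO and 60 control members, and there the sign turned for Ifng (0.13), Lmnb1 (0.45), Cxcr3 (0.86), Nkg7 (0.64), Tnfrsf4 (-0.41), Izumo1r (0.032), Il7r (-0.14), Nr4a2 (0.45), Snrpd3 (-0.36), Itga4 (0.13), Cycs (-1.25), Cd3e (0.21) and the type 1 median (0.20), and the medians of helper (-0.87), activation (-0.33), regulatory (-0.41) and heat shock genes (-0.77) moved. Cd160 turned to 0.35 without cells holding other-lineage RNA and to 0.19 among Xist cells, where the type 1 and integrin medians were -0.83 and -0.50. Icos (0.22), Irf7 (-0.51) and Ifit1 (-0.38) turned among Y-linked cells. The BCL2 family median, -0.01 as reported, was 0.45 with 2 Maf UMIs, 0.42 with 2 companions, 0.42 without other-lineage RNA and 0.76 among Y-linked cells, and the regulatory median was -0.53 with 2 companions. Genes with at most 3 UMIs in both libraries, or at 0 in 1 of them where the floor gave no direction, have no value under that setting. Prmt5 ranged from -1.38 to 1.91. No paired analysis was possible because each group has 1 library and the labels give no replicate numbers.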
